A study of Mus musculus with 6 samples.

Results

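Transcripts of 8 voltage-gated potassium channel genes were compared in the dorsal hippocampus of WT mice injected with an antisense oligonucleotide (ASO) against the long non-coding RNA Snhg11 and of WT mice injected with a scrambled oligonucleotide. The genes were listed by family, with earlier results of these data known. Kcnq3 and Kcnq5 encode subunits of the M-current channel, and Kcnh1, Kcnh5, Kcnh2, Kcnh7, Kcnh3 and Kcnh4 belong to the ether-a-go-go (EAG) family. They are 8 of the 55401 genes in the count files, and all 8 were among the 19969 genes with enough counts to be tested. The experiment held 3 Control-ASO and 3 Snhg11-ASO samples. Both groups were WT littermates of Ts65Dn mice, 4 months old, that received 50 μg of ASO per hemisphere into the dorsal dentate gyrus (DG), and tissue was taken 3 days later. No uninjected group was sequenced here, so the injection itself is shared by both groups, and each group rests on 1 oligonucleotide sequence. The tissue was the dorsal part of the whole hippocampus, although the injection was aimed at the DG alone, so each value is a mean over granule cells, pyramidal cells, interneurons and glia.

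The M-current is a slow, non-inactivating potassium current that opens near the resting potential and restrains repetitive firing. It is carried by Kv7 (KCNQ) subunits, some of which are held at the axon initial segment by ankyrin-G. The current is shut when Gq-coupled receptors such as the muscarinic ones deplete the membrane lipid PIP2. The EAG family comprises the EAG channels (Kv10), the ERG channels (Kv11), whose current resurges on repolarization, and the ELK channels (Kv12), which are open below the firing threshold. In the hippocampus these currents set resting potential, firing adaptation and transmitter release.

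Snhg11 itself ran from 209 to 551 CPM in the Control-ASO samples and from 65.4 to 139 CPM in the Snhg11-ASO samples (CPM, counts scaled to a common library total over the tested genes, with TMM factors). Counts on genes ranged from 28951250 to 43997537 per sample, with the 3 Snhg11-ASO libraries the deepest. All 6 libraries held the Y-linked Ddx3y (61.3 to 93.6 CPM) and almost no Xist (at most 0.182 CPM). Markers of granule cells summed to 259 to 344 CPM and markers of pyramidal cells to 278 to 370 CPM, so the labelled tissue was present in every library. Markers of the choroid plexus, a tissue beside the hippocampus, ranged from 36.2 to 1890 CPM within Control-ASO alone. Snhg11-ASO replicate 1 had the fewest microglial transcripts (74.6 CPM against 160 to 278 CPM in the other 5 libraries), and the lowest rank correlation between samples was 0.958 within Snhg11-ASO and 0.983 within Control-ASO, so values are also given without that library where they depend on it.

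The 8 genes fall into a long and a short class. In GRCm38 (mm10), Kcnq5 (ENSMUSG00000028033) spans 563.5 kb at chr1:21398403-21961942 on the minus strand, and Kcnh7 (ENSMUSG00000059742) spans 490.9 kb at chr2:62693414-63184287 on the minus strand. Kcnh1 (ENSMUSG00000058248) covers 319.4 kb at chr1:192190774-192510159 on the plus strand. Kcnq3 (ENSMUSG00000056258) covers 300.3 kb at chr15:65986387-66286642 on the minus strand. Kcnh5 (ENSMUSG00000034402) covers 280.1 kb at chr12:74897220-75177332 on the minus strand. The other 3 are much shorter. Kcnh2 (ENSMUSG00000038319) spans 32.0 kb at chr5:24319589-24351604 on the minus strand. Kcnh4 (ENSMUSG00000035355) spans 19.6 kb at chr11:100740376-100759942 on the minus strand, and Kcnh3 (ENSMUSG00000037579) spans 18.0 kb at chr15:99224861-99242817 on the plus strand.

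Introns make up nearly all of the long genes. Exons cover 1.36% of the span of Kcnq5, 1.45% of Kcnh5, 2.3% of Kcnh1, 3.1% of Kcnh7 and 4.9% of Kcnq3, against 15.1% of Kcnh2, 20.2% of Kcnh4 and 32.1% of Kcnh3. In the Kv7 genes the bulk lies in the first intron, which measures 367.6 kb in Kcnq5 and 254.4 kb in Kcnq3. In Kcnh7 the first intron is short (1.7 kb) and a later one measures 304.7 kb. The coding parts are of like size throughout, from 2.619 kb in Kcnq3 to 3.585 kb in Kcnh7, so the difference in span is one of introns and untranslated exon sequence.

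RefSeq promoter windows on GRCm38.p6 were matched for 6 of the 8 genes, all but Kcnq3 and Kcnh3. Each window holds the 250 bases before the RefSeq start. Shown are those of Kcnq5, Kcnh7 and Kcnh4, the 3 genes whose transcripts lay lower in every Snhg11-ASO sample, and that of Kcnh1, a long gene whose mean hardly differed. Capitals mark CG dinucleotides, and each is written 5′ to 3′ on the strand of its gene. The windows lie at chr1:21961943-21962192 (minus strand, Kcnq5), chr2:63184288-63184537 (minus strand, Kcnh7), chr11:100759779-100760028 (minus strand, Kcnh4) and chr1:192190527-192190776 (plus strand, Kcnh1).
Kcnq5: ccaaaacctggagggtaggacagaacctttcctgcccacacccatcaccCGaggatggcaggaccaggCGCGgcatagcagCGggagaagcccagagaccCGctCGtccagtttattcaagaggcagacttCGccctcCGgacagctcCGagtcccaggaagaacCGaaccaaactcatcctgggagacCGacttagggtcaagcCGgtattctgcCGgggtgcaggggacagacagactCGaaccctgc
Kcnh7: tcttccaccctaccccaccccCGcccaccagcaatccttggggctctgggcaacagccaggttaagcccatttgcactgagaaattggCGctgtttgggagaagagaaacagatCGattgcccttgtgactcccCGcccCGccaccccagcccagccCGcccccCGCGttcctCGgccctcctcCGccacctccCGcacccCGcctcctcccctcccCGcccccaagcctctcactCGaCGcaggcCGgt
Kcnh4: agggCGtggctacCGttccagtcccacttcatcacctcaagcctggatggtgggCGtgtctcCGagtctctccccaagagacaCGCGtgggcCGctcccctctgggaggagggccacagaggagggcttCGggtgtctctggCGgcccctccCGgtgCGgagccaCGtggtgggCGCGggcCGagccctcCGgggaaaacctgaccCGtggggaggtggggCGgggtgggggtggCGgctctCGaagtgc
Kcnh1: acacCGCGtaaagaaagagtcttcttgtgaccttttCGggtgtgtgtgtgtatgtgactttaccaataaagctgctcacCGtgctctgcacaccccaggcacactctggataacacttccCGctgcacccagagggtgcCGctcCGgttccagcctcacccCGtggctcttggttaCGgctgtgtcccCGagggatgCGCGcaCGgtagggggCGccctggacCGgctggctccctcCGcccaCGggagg

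The 6 matched windows held more CG than the median window. They held 14 (Kcnq5), 17 (Kcnh1), 16 (Kcnh5), 14 (Kcnh2), 16 (Kcnh7) and 20 (Kcnh4) CG dinucleotides, against a median of 6 over the 32817 windows of the same length, of which 92.1% held at least 1. Fewer CG than in these 6 were found in 70.7% to 82.1% of all windows. The letters TATAAA, searched on both strands, were in 0 of the 6 windows and in 12.4% of all windows. The GC-box core GGGCGG, also searched on both strands, occurred 4 times in the window of Kcnh7 and 3 times in that of Kcnh2, 1 time each in those of Kcnh1, Kcnh5 and Kcnh4, and not in that of Kcnq5, against 32.7% of all windows with a match. Each match to GGGCGG also contains 1 of the CG dinucleotides counted above. The CG counts of the 3 lower genes (14 to 20) thus overlapped those of the 3 matched genes that did not separate (14 to 17). The window of Kcnh2 belongs to an internal start, 22013 bases from the first annotated base of the gene. The RefSeq start used for Kcnh4 lies 164 bases inside the annotated gene and that for Kcnh1 3 bases inside, so part of each window overlaps its gene.

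Per length of exon, Kcnq3 was the most abundant of the 8 transcripts in the Control-ASO samples, at 15.6 to 21.2 RPKM (CPM divided by the length of the merged exons in kb). Kcnq5 followed at 9.92 to 12 RPKM, then Kcnh3 at 9.29 to 10.2 RPKM, Kcnh7 at 6.84 to 9.67 RPKM and Kcnh1 at 7.36 to 7.55 RPKM. Neighbours from Kcnq5 to Kcnh1 in this order overlapped in their ranges and were not separated. Kcnh5 (3.11 to 5.75 RPKM), Kcnh2 (2.16 to 2.89 RPKM) and Kcnh4 (0.391 to 0.586 RPKM) lay below them, with gaps between each. Kcnq3 and Kcnh7 carry long untranslated exon parts, and per kb of coding length Kcnh7 stood second, at 29.1 to 41.1 CPM per kb against 26.7 to 32.3 for Kcnq5, with Kcnq3 still first at 87.4 to 119 CPM per kb. In Snhg11-ASO the RPKM order put Kcnh3 second (9.1 to 10.3 RPKM), Kcnh1 next (6.34 to 7.91 RPKM), then Kcnq5 (5.66 to 7.77 RPKM), Kcnh5 (3.81 to 7.14 RPKM) and Kcnh7 (4.76 to 5.19 RPKM), while Kcnq3, Kcnh2 and Kcnh4 kept their places.

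Between the groups, 3 of the 8 genes separated. Kcnq5 and Kcnh7, each the longest gene of its pair, averaged 62.5% and 61.3% of the Control-ASO mean, and the scarce Kcnh4 averaged 47.7%. In all 3, every Snhg11-ASO sample lay below every Control-ASO sample, as it did for 7.7% of all genes tested. No channel gene lay higher without overlap, against 7.73% of all genes tested. Another 4, Kcnq3, Kcnh1, Kcnh2 and Kcnh3, had means within 5% of Control-ASO. Of the 8 genes, 7 had a log2 fold change below 0, against 48.3% of all genes tested. Since the 8 genes were chosen with earlier results known, these shares are a description and were not tested.

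In edgeR's quasi-likelihood test, the same 3 genes were lower at an unadjusted p under 0.05, against 4.43% of all genes tested (885 genes), and 0 were higher, against 3.68% (734 genes). After Benjamini-Hochberg adjustment over the 19969 genes, edgeR called 0 channel genes and 0 genes in all (0% of those tested). DESeq2 called 258 genes, among them Kcnq5 and Kcnh7, and the genes it called lower were 0.885% of those it tested. The call on both genes therefore depends on the test. Among the DESeq2 fits on merged strands that each left out 1 Snhg11-ASO sample, the call also varied with the sample left out. Without sample 3, Kcnq5 was not called (log2 fold change -0.58, adjusted p = 0.0674). Without sample 2, Kcnh7 was not called (log2 fold change -0.65, adjusted p = 0.0953). No DESeq2 fit on merged strands held all samples, so the choice of strand and the removal of a sample were not separated. The samples are separate injected mice per the methods of the study, and the p-values measure the spread between those mice.

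**Figure D1:**
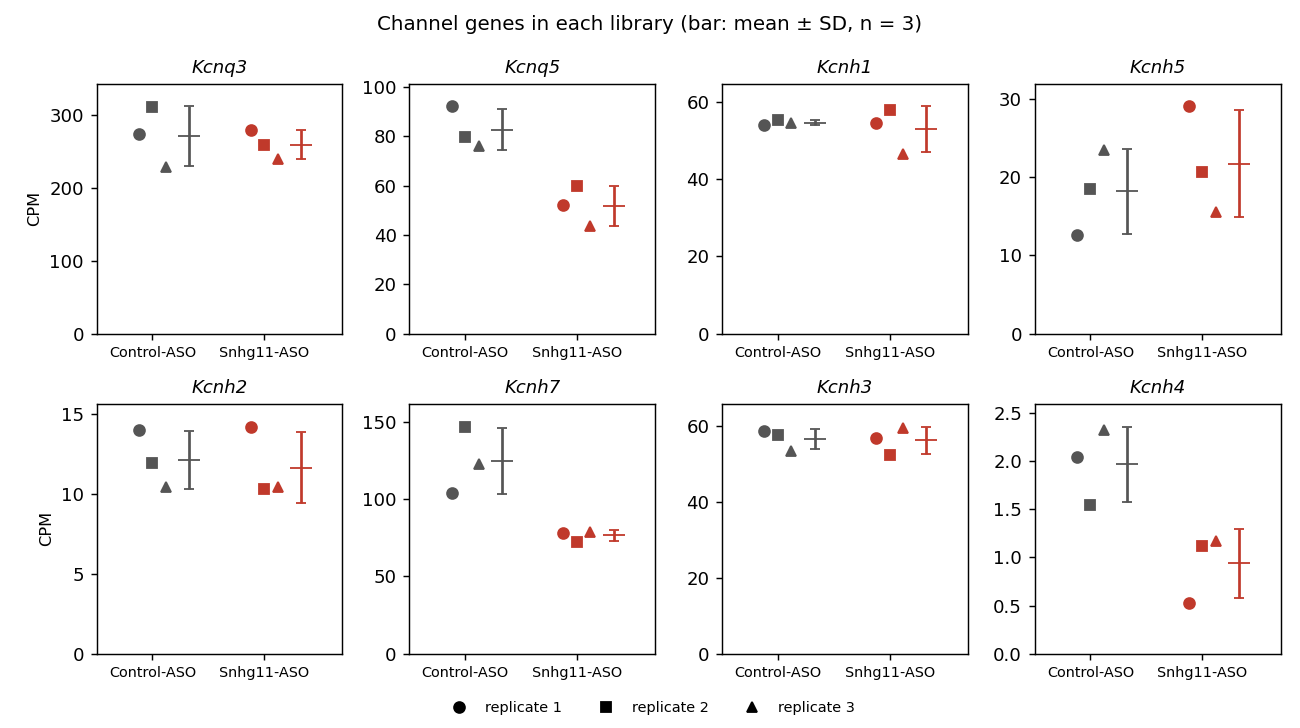
CPM of the 8 channel genes (y axis, from 0, with its own scale in each panel) in the 3 Control-ASO (grey) and 3 Snhg11-ASO (red) libraries, with the symbol giving the replicate number and the bar the mean ± SD. Kcnq5, Kcnh7 and Kcnh4 have no Snhg11-ASO point as high as the lowest Control-ASO point, while the points of the other 5 genes overlap.

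Kcnq3 encodes Kv7.3, the subunit with which other Kv7 proteins assemble into M-channels. In replicates 1, 2 and 3 of Control-ASO its transcript stood at 274, 311 and 229 CPM, and in those of Snhg11-ASO at 280, 259 and 240 CPM, the order kept for every gene that follows. The groups overlapped. The mean was 271 ± 41.2 CPM (SD, n = 3) in Control-ASO and 260 ± 20.3 CPM (SD, n = 3) in Snhg11-ASO. The log2 fold change was -0.06 with a standard error of 0.132 (edgeR adjusted p = 0.916).

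Kcnq5 encodes Kv7.5, which assembles with Kv7.3 or alone. It was counted at 92.2, 79.8 and 76.3 CPM in Control-ASO and at 52.1, 59.7 and 43.5 CPM in Snhg11-ASO. The highest Snhg11-ASO sample stayed below the lowest Control-ASO sample, so the groups did not overlap (exact permutation p = 0.1, two-sided, which no split of 3 against 3 can undercut). The mean was 82.8 ± 8.35 CPM (SD, n = 3) against 51.8 ± 8.12 CPM (SD, n = 3). The log2 fold change was -0.68 with a standard error of 0.14, at an unadjusted p of 0.00187, an edgeR adjusted p of 0.397 and a DESeq2 adjusted p of 0.00892. By edgeR's p the gene ranked 93 of all genes tested. Without Snhg11-ASO replicate 1 the log2 fold change was again -0.68 (edgeR adjusted p = 0.306). In bulk tissue, fewer cells that express a gene and less RNA per cell cannot be told apart, here and for every difference that follows.

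Of the EAG pair, Kcnh1 encodes Kv10.1, a channel of axons and terminals that intracellular calcium inhibits. It stood at 54, 55.4 and 54.7 CPM in Control-ASO, the tightest group of all, and at 54.6, 58 and 46.5 CPM in Snhg11-ASO. The Control-ASO samples lay inside the Snhg11-ASO range. The log2 fold change was -0.05 with a standard error of 0.105 (edgeR adjusted p = 0.929).

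Kcnh5 encodes the close relative Kv10.2. Its counts scattered widely in both groups, at 12.6, 18.5 and 23.4 CPM in Control-ASO and at 29, 20.6 and 15.5 CPM in Snhg11-ASO. It was the single channel gene with a higher mean in Snhg11-ASO, 21.7 ± 6.84 CPM (SD, n = 3) against 18.1 ± 5.38 CPM (SD, n = 3). The log2 fold change was 0.26 with a standard error of 0.294 (edgeR adjusted p = 0.838). That value rested on Snhg11-ASO replicate 1, without which it was -0.01, and without Control-ASO replicate 1 it was 0.04.

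Among the ERG channels, Kcnh2 encodes Kv11.1, best known for repolarizing the heart and also present in neurons. It was counted at 14, 11.9 and 10.4 CPM in Control-ASO and at 14.2, 10.3 and 10.4 CPM in Snhg11-ASO. The groups overlapped almost fully, with a log2 fold change of -0.06 and a standard error of 0.186 (edgeR adjusted p = 0.947).

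Kcnh7 encodes Kv11.3, the ERG subunit largely restricted to the nervous system. It stood at 104, 147 and 123 CPM in Control-ASO and at 78.1, 72.5 and 79 CPM in Snhg11-ASO. The 3 Snhg11-ASO samples lay close together and below the whole Control-ASO group (exact permutation p = 0.1, two-sided). The mean was 125 ± 21.6 CPM (SD, n = 3) against 76.5 ± 3.55 CPM (SD, n = 3). The log2 fold change was -0.71 with a standard error of 0.134, at an unadjusted p of 0.00118, rank 71 of all genes, an edgeR adjusted p of 0.333 and a DESeq2 adjusted p of 0.00308. Without Snhg11-ASO replicate 1 it was -0.72 (edgeR adjusted p = 0.276).

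The ELK pair consists of Kcnh3, which encodes Kv12.2, a channel of hippocampal pyramidal cells active below threshold, and Kcnh4, which encodes Kv12.3. Kcnh3 was steady, at 58.6, 57.6 and 53.5 CPM in Control-ASO and at 57, 52.4 and 59.5 CPM in Snhg11-ASO. Its log2 fold change of -0.01 had the smallest standard error of the 8 genes, 0.091 (edgeR adjusted p = 0.988).

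Kcnh4 was scarce, with 60, 52 and 78 counts in Control-ASO and 20, 47 and 51 counts in Snhg11-ASO, although the latter libraries were deeper. In CPM, the Control-ASO values were 2.04, 1.55 and 2.32 and the Snhg11-ASO values 0.525, 1.12 and 1.17. The groups did not overlap (exact permutation p = 0.1, two-sided). The log2 fold change of -1.06 was the largest in size of the 8 genes and also the least certain, with a standard error of 0.365, an unadjusted p of 0.023, an edgeR adjusted p of 0.551 and a DESeq2 adjusted p of 0.272. Snhg11-ASO replicate 1 gave the lowest value, and leaving it out gave a log2 fold change of -0.78 (edgeR adjusted p = 0.439).

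Since subunits of a subfamily can share a channel, each pair was also compared as a ratio of counts per kb within a library, which does not depend on library scaling. The Kcnq5 to Kcnq3 ratio was 0.644, 0.49 and 0.637 for Control-ASO, against 0.355, 0.44 and 0.347 for Snhg11-ASO. Every Snhg11-ASO ratio was below every Control-ASO ratio, with means of 0.591 ± 0.087 (SD, n = 3) and 0.381 ± 0.0518 (SD, n = 3) and a log2 difference of -0.63 (two-sided exact permutation p = 0.1, adjusted p = 0.2 over 4 ratios). The Kcnh4 to Kcnh3 ratio also separated. It was 0.0508, 0.0391 and 0.0631 for Control-ASO, against 0.0134, 0.0313 and 0.0286 for Snhg11-ASO, a log2 difference of -1.13 (two-sided exact permutation p = 0.1, adjusted p = 0.2). Leaving out Snhg11-ASO replicate 1 reduced this difference to -0.74, and merging the strands to -0.79.

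The Kcnh7 to Kcnh2 ratio was 2.36, 3.93 and 3.75 in Control-ASO, against 1.75, 2.23 and 2.41 in Snhg11-ASO. Its log2 difference of -0.63 equalled that of the Kv7 pair, but Control-ASO replicate 1 fell below Snhg11-ASO replicate 3, so the groups overlapped by 1 pair of samples (two-sided exact permutation p = 0.2, adjusted p = 0.267). The Kcnh5 to Kcnh1 ratio lay between 0.422 and 0.959 with no separation (log2 difference 0.31, two-sided exact permutation p = 0.5, adjusted p = 0.5). That difference shrank to 0.1 when Snhg11-ASO replicate 1 was left out and to 0.08 when Control-ASO replicate 1 was. For the Kcnq5 to Kcnq3 and Kcnh7 to Kcnh2 ratios, leaving out Snhg11-ASO replicate 1 gave -0.58 and -0.49. None of the 4 ratios could pass 0.05 in this test, whose smallest p is 0.1.

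**Figure D2:**
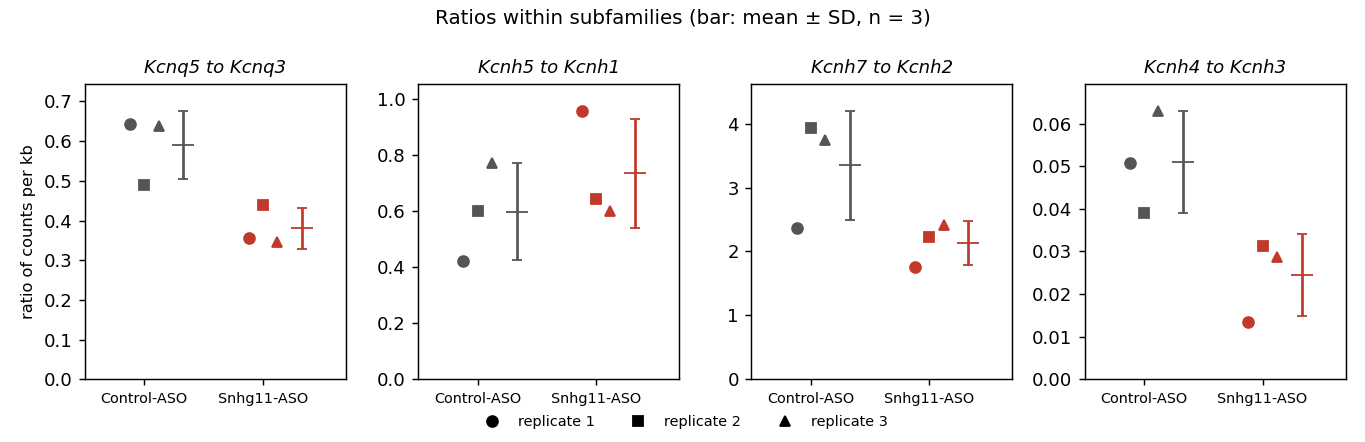
Ratio of counts per kb of exon within each library (y axis, from 0, own scale in each panel) for the 4 pairs, in Control-ASO (grey) and Snhg11-ASO (red), with the bar giving the mean ± SD of 3 samples. The Kcnq5 to Kcnq3 and Kcnh4 to Kcnh3 ratios do not overlap between the groups, and the other ratios do.

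Genomic span was examined since the 8 genes range from 18.0 to 563.5 kb and long genes were lower across the data. Of 2328 protein-coding genes over 100 kb, the median log2 fold change was -0.07 and 61.1% lay below 0, against 0.04 and 43% of 12644 genes under 100 kb. The median was lower in longer classes, at -0.13 in the 733 genes of 200 to 500 kb and -0.37 in the 217 genes over 500 kb. In that longest class 51.2% of the genes did not overlap between the groups and were lower.

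The channel genes did not divide at 100 kb. The median log2 fold change was -0.06 over the 5 long genes and -0.06 over the 3 short ones. Lower without overlap were 2 of the 5 long genes, against 18.2% of all protein-coding genes over 100 kb, and the same 2 were lower at an unadjusted p under 0.05, against 13.6%. Of the 3 short genes, 1, Kcnh4, was lower without overlap and at an unadjusted p under 0.05, against 4.91% and 2.17% of all protein-coding genes under 100 kb. The mean log2 CPM of the 5 long genes was 6.15, 6.36 and 6.27 in Control-ASO, against 6.15, 6.07 and 5.83 for Snhg11-ASO, where the groups met at 6.15. That of the 3 short genes was 3.58, 3.37 and 3.46 against 2.96, 3.11 and 3.19. The long minus short difference was 2.56, 2.99 and 2.81 against 3.19, 2.96 and 2.64, and the groups overlapped. The short mean leaned on Kcnh4, and with that gene left out, an alternative chosen after its values were seen, the long minus short difference in mean log2 fold change moved from 0.13 to -0.21.

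Within the long class, both genes near or over 500 kb, Kcnq5 and Kcnh7, were lower without overlap. The 3 genes of about 300 kb, Kcnq3, Kcnh1 and Kcnh5, overlapped. Of all protein-coding genes tested, 51.2% of those over 500 kb were lower without overlap. The share was 22.4% at 200 to 500 kb, the class of Kcnh7 and of the 3 genes that overlapped. Set among genes of their own span, Kcnq5 was at or above 44 of the 217 genes over 500 kb (20.3%), so its log2 fold change was below the class median of -0.37 and inside the spread of the class. Kcnh7 was at or above only 29 of the 733 genes of 200 to 500 kb (3.96%), a class whose upper edge it nearly reaches. Kcnq3 and Kcnh1 stood at 60.6% and 63.6% of the same class and Kcnh5 at 91.4%. Among 2840 genes of 10 to 20 kb, Kcnh4 was at or above 20 (0.704%), while Kcnh3 stood at 39.6%, and Kcnh2 at 31.1% of its class.

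When offsets removed each sample's trend with span, the log2 fold change of Kcnq5 was -0.42 (unadjusted p = 0.0068) and that of Kcnh7 -0.46 (unadjusted p = 0.0193), with edgeR adjusted p of 0.613 and 0.634. Those of Kcnq3 and Kcnh1 turned to 0.1 and 0.12. Kcnh4 kept -1.09 (unadjusted p = 0.0187, edgeR adjusted p = 0.634).

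**Figure D3:**
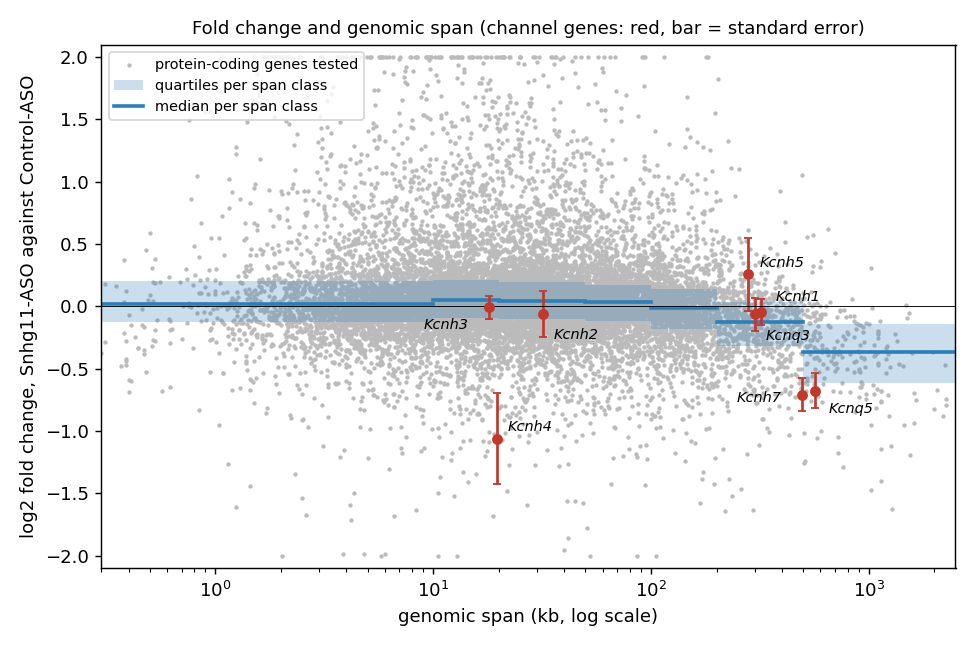
Log2 fold change of Snhg11-ASO against Control-ASO (y axis, values beyond ±2 drawn at the edge) against genomic span in kb (log x axis) for protein-coding genes (grey), with the median and quartiles of each span class in blue and the 8 channel genes in red with their standard errors. Kcnh7 and Kcnq5 lie below the quartile band of their classes at the long end, Kcnh4 lies far below its own, and the other 5 lie between -0.06 and 0.26.

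Markers of neurons also lay lower. The summed CPM of the markers Rbfox3, Snap25, Syt1, Syn1 and Tubb3 was 2170, 2290 and 2420 for Control-ASO, against 1890, 2060 and 1890 for Snhg11-ASO. The Snhg11-ASO mean was 84.9% of the Control-ASO mean. A log2 fold change below 0 was found in 5 of 5 markers, against 48.3% of all genes tested, and none lay near 0 CPM. Syt1 and Tubb3 did not overlap between the groups, and Rbfox3, Snap25 and Syn1 did. Syt1 spans 513.3 kb and Rbfox3 421.8 kb, so the sum includes long genes, which were lower across the data. Snap25 (mean 985 CPM) and Syt1 (mean 845 CPM) made up most of the sum. Interneuron markers summed to 397 to 433 CPM against 327 to 373 CPM, again with 5 of 5 below 0. Taken per summed neuron marker CPM, a scale chosen after these values were seen, Kcnq5 stood at 4.25%, 3.49% and 3.15% in Control-ASO and at 2.76%, 2.9% and 2.3% in Snhg11-ASO. On that scale Kcnh7 stood at 4.81%, 6.44% and 5.09% against 4.14%, 3.52% and 4.17%. Neither gene overlapped between the groups there, with log2 differences of -0.45 and -0.46, and Kcnh4 did not overlap either, at -0.9. The other 5 genes overlapped, and Kcnq3, Kcnh1, Kcnh2 and Kcnh3 had means above Control-ASO on this scale.

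Other cell types gave no such separation. The marker sums of granule cells (259 to 315 CPM against 265 to 344 CPM), pyramidal cells (341 to 362 against 278 to 370), astrocytes (1130 to 3020 against 1490 to 3580), oligodendrocytes (1300 to 2380 against 1180 to 2890), microglia (160 to 278 against 74.6 to 256), endothelium (70.7 to 95.6 against 74.9 to 123), mural cells (101 to 120 against 104 to 132) and choroid plexus (36.2 to 1890 against 67.8 to 1290) all overlapped between the groups. Their part in the values of the channel genes was not tested.

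Counting by strand touched 2 genes. Kcnh7 shares 696 bases of exon with Gca on the opposite strand, and 3.01% to 3.62% of its counts over both strands in Control-ASO and 4.05% to 5.53% in Snhg11-ASO were antisense. With strands merged its log2 fold change was -0.68. Kcnh4 had few antisense counts (4, 6 and 9 in Control-ASO, against 16, 8 and 14 in Snhg11-ASO), but they made up 6.25% to 10.3% of its counts in Control-ASO and 14.5% to 44.4% in Snhg11-ASO. With strands merged its counts were 64, 58 and 87 against 36, 55 and 65, and the log2 fold change shrank to -0.78. In the other 6 genes antisense counts stayed at or below 0.595%.

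The proteins that act on these channels were read from 4 lists of genes. No gene of these lists passed an adjusted p of 0.05 in edgeR or DESeq2. Of 23 genes that regulate the M-current (among them Gq-coupled receptors, PIP2 enzymes and anchoring proteins), 9 had a log2 fold change below 0 and 14 above it, against 48.3% of all genes below 0, and the median was 0.06. At an unadjusted p under 0.05, 2 were lower (4.43% of all genes tested) and 0 higher (3.68%). Htr2a, a Gq-coupled serotonin receptor, stood at 19, 20.3 and 20.8 CPM in Control-ASO and at 15.1, 13.4 and 15.8 CPM in Snhg11-ASO (log2 fold change -0.44, standard error 0.118, edgeR adjusted p = 0.492). Plcb1, the phospholipase C that splits PIP2 behind such receptors and a gene of 689.2 kb, stood at 250, 305 and 282 CPM against 187, 234 and 186 CPM (log2 fold change -0.46, standard error 0.128, edgeR adjusted p = 0.498). Neither overlapped between the groups. Of the 23 genes, 3 were lower without overlap, these 2 among them, against 7.7% of all genes tested, and 1 was higher, against 7.73%.

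Of 7 genes of the axon initial segment scaffold, 5 lay below 0 (48.3% of all genes tested), with a median of -0.07, and 1 was lower at an unadjusted p under 0.05 (4.43% of all genes). That gene was Map6, which encodes a microtubule-stabilizing protein, at 70.3, 61.5 and 67.8 CPM against 51.4, 58.7 and 49.2 CPM (log2 fold change -0.33, edgeR adjusted p = 0.543). Ank3, the gene of ankyrin-G to which some Kv7 channels bind, spans 628.7 kb. Its log2 fold change was -0.06, with 494 to 632 CPM against 406 to 723 CPM. Of 7 genes of currents in the same voltage range (HCN channels and the NALCN leak channel complex), 6 lay below 0, against 48.3% of all genes tested, with a median of -0.21. The 1 that was lower at an unadjusted p under 0.05, as were 4.43% of all genes, was Unc80, a subunit of the NALCN complex, at 564, 520 and 504 CPM against 467, 464 and 420 CPM (log2 fold change -0.23, edgeR adjusted p = 0.605).

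Of 17 partners and folding factors of ERG and EAG channels, 15 were tested, 8 lay below 0 (48.3% of all genes) and 7 above, with a median of -0.04. At an unadjusted p under 0.05, 0 were lower and 0 higher in edgeR, against 4.43% and 3.68% of all genes. The most abundant, the chaperone gene Hsp90ab1 at 1170 CPM, had a log2 fold change of 0.07. The widest difference of the list, chosen here after its values were seen, was in Kcne2, a small accessory subunit also made in the choroid plexus. It stood at 7.95, 0.119 and 5.85 CPM in Control-ASO and at 2.05, 0.598 and 0.229 CPM in Snhg11-ASO, beside choroid plexus marker sums of 1890, 36.2 and 1220 CPM and of 1290, 124 and 67.8 CPM in the same libraries.

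**Figure D4:**
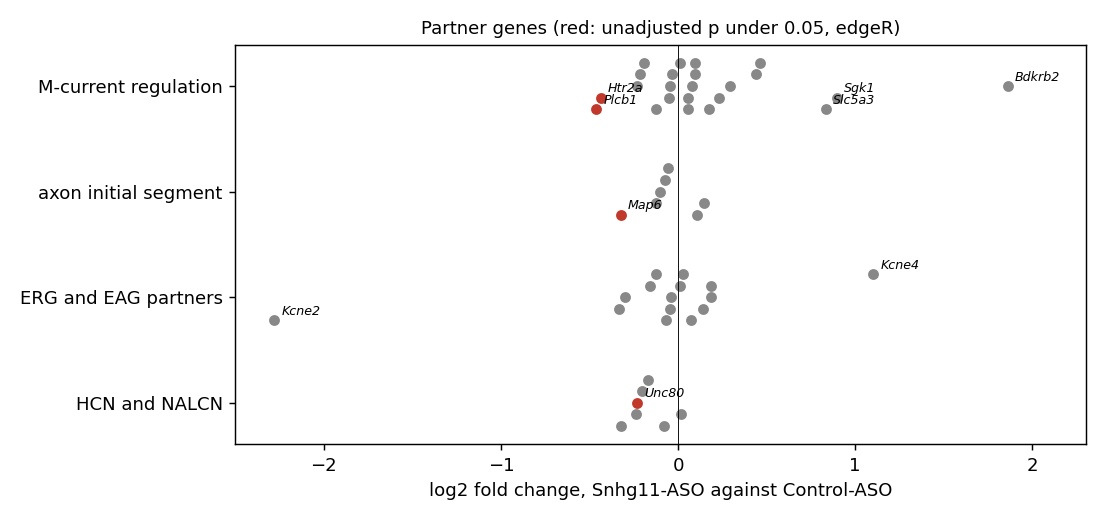
Log2 fold change of Snhg11-ASO against Control-ASO (x axis) for each tested gene of the 4 lists (rows, with points spread vertically for legibility), in red where edgeR's unadjusted p was under 0.05. The 4 red genes, Htr2a, Plcb1, Map6 and Unc80, all lie below 0, and the named grey genes are those farthest from 0.

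The protein-coding genes whose log2 CPM over the 6 samples ran closest to the mean of the 5 long channel genes were Ptpn5 (Pearson r = 0.984), Mapk10 (r = 0.979) and 2210408I21Rik (r = 0.964). Those closest to the mean of the 3 short genes were Rac3 (r = 0.986), Mtfp1 (r = 0.984) and Zcchc3 (r = 0.984). These r values describe 6 points that share library and depth. They are the highest of a search over protein-coding genes with a mean CPM of at least 1, so high values follow from the search. Of the first 3, Mapk10 spans 303.4 kb, 2210408I21Rik 478.2 kb and Ptpn5 55.9 kb, and the 3 matches of the short genes span 2.5 to 4 kb.

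Each of the 8 genes was refitted under 17 alternatives. Kcnq5 lay below 0 in all 17, at -0.81 to -0.42, with adjusted p from 8.1e-04 to 0.951 and 3 calls, all among the 4 fits with DESeq2. Kcnh7 lay below 0 in all 17, at -0.83 to -0.45, with adjusted p from 0.00308 to 0.951 and 3 calls, again among those 4 fits. Kcnh4 lay below 0 in all 17, at -1.25 to -0.61, and was called in 0 of them (adjusted p from 0.272 to 0.979). The other 5 stayed between -0.22 and 0.47, each took both signs, and none was called. With the replicate number as a block, the log2 fold changes of Kcnq5, Kcnh7 and Kcnh4 were -0.68, -0.69 and -1.11.

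**Figure D5:**
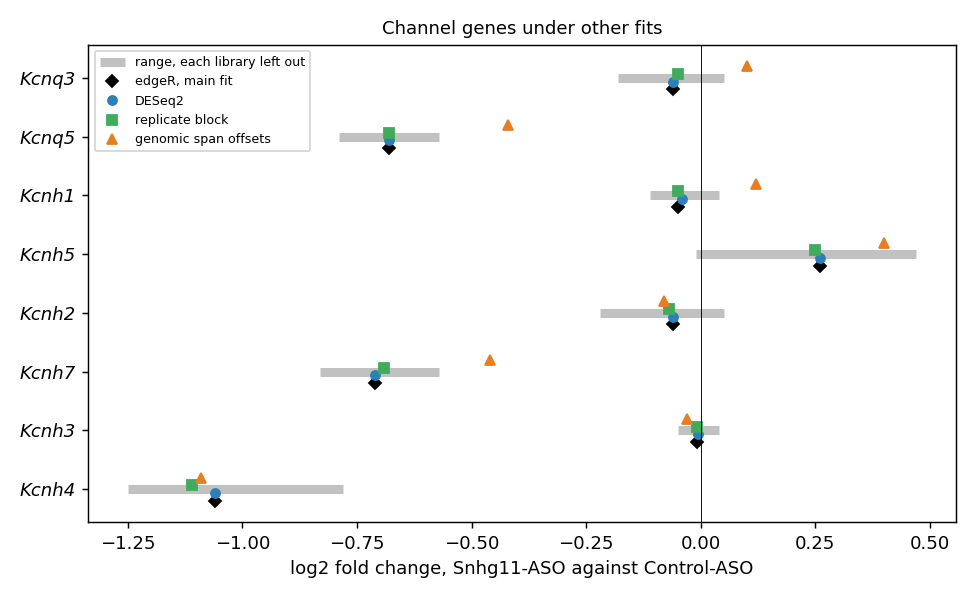
Log2 fold change of the 8 channel genes (x axis) in the edgeR fit, in DESeq2, with a replicate block and with genomic span offsets (symbols), and the range over fits that leave out each library in turn (grey bars). Kcnq5, Kcnh7 and Kcnh4 stay below 0 throughout, and the grey bars of the other 5 genes reach or cross 0.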

How the data were processed

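Dorsal hippocampal RNA of 6 mice was sequenced as stranded total RNA libraries. The authors aligned read pairs to mm10 (GRCm38) with STAR 2.5.2a and deposited raw counts per gene and strand, neither normalized nor pooled. The methods of the study name Rsubread for counting and the removal of 1 unnamed Snhg11-ASO sample, while the deposited counts are STAR's and hold all 6. STAR drops pairs on several genes (0.6% to 0.761%). The 4 summary lines of each file, which name no gene, held 43.5% to 51.4% of pairs and were left out. Reverse-strand counts were used, as the library protocol implies (96.2% to 96.8% of stranded counts).

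GENCODE M21 on GRCm38 matched 55141 of 55401 genes. Genes were filtered with filterByExpr (minimum count 10), scaled by TMM and tested with edgeR 4.0.16 (quasi-likelihood, R 4.3.3) with Benjamini-Hochberg adjustment over 19969 genes at 0.05. edgeR estimated a common BCV of 0.266 (prior df 2.99). Standard errors are the fold change divided by the root of F. Log2 CPM used a prior count of 2. Ratios were tested with a two-sided exact permutation test. The scripts were tested on simulated data. Alternatives were DESeq2 1.42.0, its size factors, merged strands, other filters, span offsets (lowess fraction 0.3), a replicate block, each sample left out and a span threshold of 200 kb.

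The channel genes and all lists were chosen with earlier results of these data known. Named were the 8 channel genes, from each pathway list the genes at an unadjusted p under 0.05 and the most abundant one, and the 3 genes most alike to each length class (mean CPM of at least 1). The most abundant gene of the M-current list is not reported here. Replicate numbers 1, 2 and 3 recur in both groups. After each group mean was subtracted, samples of one number correlated at 0.297, 0.179 and 0.103. The highest correlation with a sample of another number was -0.063, 0.188 and 0.188, above the same-number value for replicates 2 and 3. All same-number values exceed 0.1, but these values do not settle whether the numbers pair the samples, and the labels do not say. The main fit and the permutation tests treated the samples as unpaired, and the replicate block was fitted as an alternative. Counting error is small beside these differences except for Kcnh4, with 20 to 78 counts per library.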

Additional observations from a re-analysis of the deposited data

How the results depend on the processing

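DESeq2 called 258 genes against 0 in edgeR, and on merged strands without Snhg11-ASO sample 1, 2 or 3 it called 322, 281 and 206. edgeR called 0 to 2 genes when each library was left out, the 2 without Snhg11-ASO replicate 1. The number of channel genes at an unadjusted p under 0.05 was 2 or 3 throughout, 2 without Control-ASO replicate 1 or 3 and in DESeq2 on merged strands without Snhg11-ASO sample 1 or 2, and 5 to 8 lay below 0. The replicate block changed no call, with 3 channel genes at an unadjusted p under 0.05 and 0 genes called. The median log2 fold change of the long genes moved from -0.06 to 0.1 under span offsets and 0.11 with span offsets and the block, and ranged from -0.18 to -0.0089 with each library left out. That of the short genes ranged from -0.22 (without Snhg11-ASO replicate 1) to 0.02, and was -0.21 in DESeq2 on merged strands without sample 1. Long minus short was -0.21 without Kcnh4.

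Over 17 alternatives for each of 8 genes, 113 values kept direction and call, 6 became calls (Kcnq5 and Kcnh7, 3 each) and 17 changed sign, all in the 5 genes near 0. Span offsets gave Kcnq3 0.1 and Kcnh1 0.12, and with the block 0.11 and 0.12. With each library left out, Kcnq3 ranged from -0.18 to 0.05, Kcnh1 from -0.11 to 0.04, Kcnh5 from -0.01 to 0.47, Kcnh2 from -0.22 to 0.05 and Kcnh3 from -0.05 to 0.04. DESeq2 on merged strands gave Kcnh5 -0.002 without Snhg11-ASO sample 1, Kcnh2 0.0032 and Kcnh3 0.03 without sample 2, and Kcnh1 0.02 without sample 3. Per neuron marker CPM, Kcnq3, Kcnh1, Kcnh2 and Kcnh3 came to 0.18, 0.18, 0.17 and 0.23. The cause of these shifts was not tested.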
